A study of Mus musculus with 2 samples.

Results

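The mouse genes for the spliceosomal RNAs U1, U2, U4, U5, U11, U12 and U4atac were examined for tags from an anti-FLAG chromatin immunoprecipitation of cyclin D1. They comprised every gene of type snRNA with one of those 7 names in the GENCODE M1 annotation of the NCBIM37 genome, 322 of 37252 genes on the autosomes and X. U1 had 206 copies, U2 had 51, U4 had 43, U5 had 10, U11 had 5, U12 had 6 and U4atac had 1. The rule used gene type and name and no measured value, but it was set with earlier results of these data known. The 322 copies had 309 distinct sequences, but copies of a class resemble each other and were not treated as replicates.

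Both libraries came from 1 cell population: fibroblasts of the 3T3 type, described in the labels both as 3T3 cells and as mouse embryonic fibroblasts, with the Ccnd1-/- genotype and an MSCV retroviral vector that expressed FLAG-tagged cyclin D1, so its level was set by the vector and not by the Ccnd1 promoter. Cells were not treated. Chromatin was fixed for 15 min in 1% formaldehyde and sheared to an average of 300 to 500 bp. The M2 antibody against FLAG precipitated 1 library and normal mouse IgG the other, so the tagged, re-expressed cyclin D1 was present in both and only the antibody differed. No replicate existed for either antibody. Every test below compares these 2 libraries, not 2 conditions, and every interval covers counting error only.

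Spliceosomal RNAs are the RNA cores of the particles that remove introns. U1 pairs with the 5′ splice site, U2 with the branch point, and U5 contacts both exons, while U4 holds U6 inactive until the particle is rearranged; U11, U12 and U4atac serve the minor class of introns. Apart from U6, these genes are transcribed by RNA polymerase II from short promoters without a TATA box. Such a promoter has a proximal sequence element (PSE), bound by the SNAPc complex, and an upstream enhancer that often holds an octamer for Oct-1, and transcripts are cut by the Integrator complex soon after the end of the RNA. Mammalian genomes hold many degenerate copies of each class beside the few that make RNA. Cyclin D1 is the regulatory partner of CDK4 and CDK6 and has also been studied on chromatin.

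The RNA starts below are shown because annotated copies of a class differ in them. The first 60 bases are given for the called U1 and U2 copies of smallest p outside other genes' exons, then for a U1 copy without excess that has the same start, and last for the 2 U1 copies that passed the test without it. Capitals mark the stretch that pairs with the 5′ splice site in U1 and with the branch point in U2. Sequences were read 5′ to 3′ along the gene from the NCBIM37 reference.
U1 ENSMUSG00000075736.1 (chr12:55797769-55797828, plus strand): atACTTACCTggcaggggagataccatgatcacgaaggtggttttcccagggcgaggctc
U2 ENSMUSG00000065944.1 (chr11:101519552-101519611, plus strand): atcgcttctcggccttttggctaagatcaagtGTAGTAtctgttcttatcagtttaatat
U1 ENSMUSG00000064889.1 (chr9:94179334-94179393, plus strand): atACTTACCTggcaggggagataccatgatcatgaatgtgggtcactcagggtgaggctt
U1 ENSMUSG00000087786.1 (chr5:100946403-100946462, minus strand): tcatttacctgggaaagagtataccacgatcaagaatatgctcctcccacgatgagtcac
U1 ENSMUSG00000088021.1 (chr9:66952015-66952074, plus strand): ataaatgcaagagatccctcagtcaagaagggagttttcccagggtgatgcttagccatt
The last 2 hold no exact match to the capitalised U1 letters in these 60 bases.

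The promoters below were chosen from called copies outside other genes' exons. For each class, the copy of smallest p that held both an exact octamer and a PSE core on the gene's strand was taken. A U1 copy without excess is shown for contrast. All promoters run from position -240 to -41 relative to the transcription start site (TSS). Capitals mark the octamer (ATGCAAAT, on either strand, at 300 to 150 bases before the TSS) and the PSE core (ACCNTNA, at 80 to 40 bases before it, gene strand).
U1 ENSMUSG00000070194.1 (chr11:87239978-87240177, plus strand): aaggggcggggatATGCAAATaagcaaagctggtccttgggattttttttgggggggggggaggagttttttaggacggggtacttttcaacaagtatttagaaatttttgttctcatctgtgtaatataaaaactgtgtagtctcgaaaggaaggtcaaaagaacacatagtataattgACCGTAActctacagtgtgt
U2 ENSMUSG00000065944.1 (chr11:101519312-101519511, plus strand): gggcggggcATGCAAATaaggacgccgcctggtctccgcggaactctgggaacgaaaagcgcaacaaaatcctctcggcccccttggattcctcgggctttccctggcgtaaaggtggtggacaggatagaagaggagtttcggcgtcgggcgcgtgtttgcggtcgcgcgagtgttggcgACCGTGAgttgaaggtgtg
U4 ENSMUSG00000075779.1 (chr5:115940023-115940222, plus strand): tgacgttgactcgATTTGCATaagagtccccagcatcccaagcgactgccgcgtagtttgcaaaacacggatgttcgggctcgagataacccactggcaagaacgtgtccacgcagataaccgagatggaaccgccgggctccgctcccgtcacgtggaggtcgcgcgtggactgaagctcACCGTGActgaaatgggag
U5 ENSMUSG00000075930.1 (chr9:65049689-65049888, minus strand): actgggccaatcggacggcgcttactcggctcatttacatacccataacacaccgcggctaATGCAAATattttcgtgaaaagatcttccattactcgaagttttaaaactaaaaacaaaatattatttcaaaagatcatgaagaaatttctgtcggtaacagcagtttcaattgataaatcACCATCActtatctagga
U11 ENSMUSG00000077323.1 (chr4:131826169-131826368, minus strand): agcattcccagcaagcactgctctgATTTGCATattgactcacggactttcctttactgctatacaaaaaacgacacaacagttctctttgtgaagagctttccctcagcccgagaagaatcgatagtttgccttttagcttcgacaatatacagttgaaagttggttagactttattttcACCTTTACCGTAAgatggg
U1 ENSMUSG00000064889.1, without excess (chr9:94179094-94179293, plus strand): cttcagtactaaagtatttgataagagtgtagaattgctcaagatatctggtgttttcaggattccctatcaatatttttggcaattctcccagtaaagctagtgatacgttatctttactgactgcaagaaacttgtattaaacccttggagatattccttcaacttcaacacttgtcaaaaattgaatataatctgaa
The last has neither motif in its window, although its first 20 bases of RNA are those of U1 ENSMUSG00000075736.1.

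The anti-FLAG library held 9255188 tags on the autosomes and X and the IgG library 9308877, an average of 3.51 and 3.53 tags per kb. In introns 1 to 3 of Ccnd1 (4860 bp), each library had 1 tag where about 17 were expected from those averages, as a deletion would leave. Intron 4 (1244 bp) held 14 anti-FLAG and 5 IgG tags and so showed no such loss. Tag positions do not report the RNA of marker genes, so the fibroblast label was not checked. In windows far from any gene start, the anti-FLAG to IgG ratio rose with base composition, from 0.951 at a G+C content of 40 to 42% to 1.36 at 50 to 52%. A call corrected for this trend is therefore given beside the main one.

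A small group of copies carried the anti-FLAG excess, and it included members of all 7 classes. In the 2-kb window centred on each TSS, 23 copies had more anti-FLAG than IgG tags by an exact binomial test at an adjusted p below 0.05 (Benjamini-Hochberg, 14632 gene windows with at least 20 tags). None passed in the other direction. Summed over windows, the 23 held 1467 anti-FLAG and 312 IgG tags and the other 299 held 2213 and 2268. They made up 24.7% of the 93 copies that could be tested, against 23.9% of all gene windows and 27.8% of protein-coding windows, so their share as a whole was near the background. With the G+C correction, 16 of the 93 copies (17.2%) kept a call, beside 1.28% of all gene windows. The median log2 ratio, with 1 tag added to each count, was 0.01 over all 322 copies and 0.31 over the tested ones, beside 0.39 and 0.77 for all genes.

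Copies with many anti-FLAG tags close to the start were not more frequent than such starts among all genes. From 300 bp before to 200 bp after the TSS, 19 copies had at least 10 anti-FLAG tags, 5.90% of 322 beside 7.83% of all genes. No copy reached 10 IgG tags there, and 0.153% of all genes did. The 19 comprised 7 U5, 4 U2, 3 U1 and 2 U4 copies with 1 each of U11, U12 and U4atac. One of the 19, U5 ENSMUSG00000070237.1, was not among the 23.

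**Figure D1:**
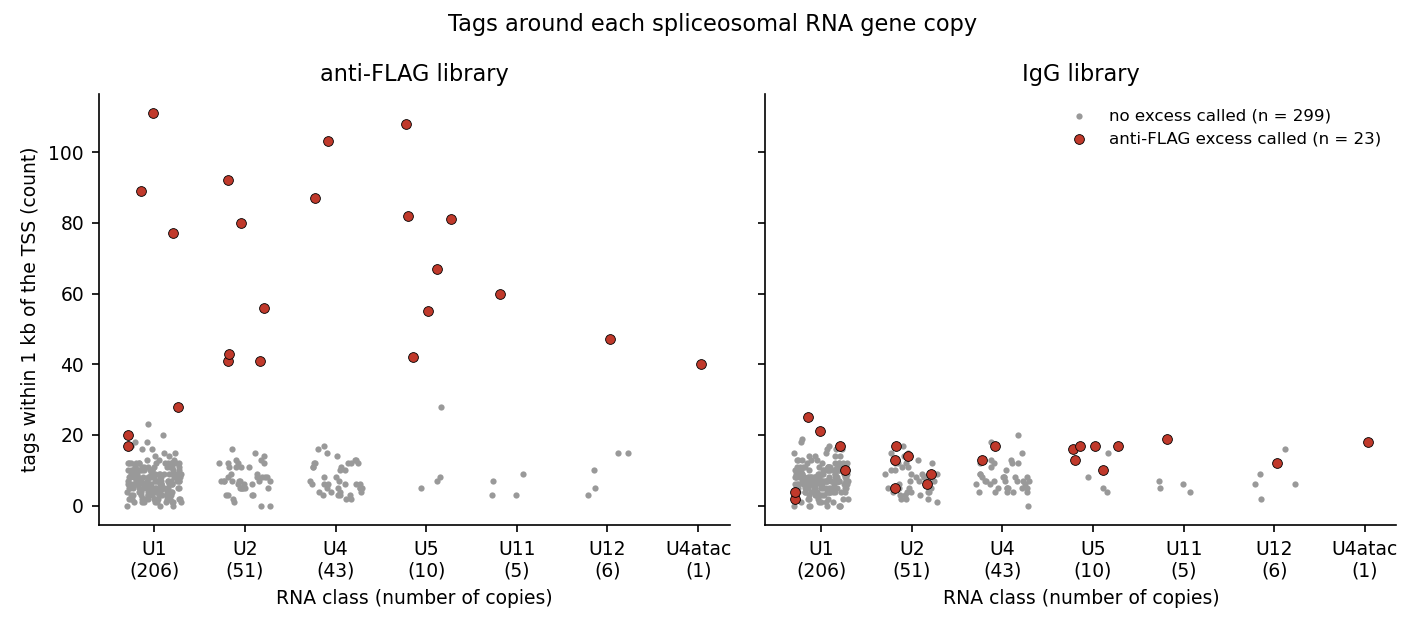
Tags within 1 kb of the TSS (vertical axis, count) for each of the 322 copies by RNA class (horizontal axis, spread sideways within a class): anti-FLAG on the left, IgG on the right. Red points are the 23 copies with a called excess, which reach 111 anti-FLAG tags but no more than 25 from IgG.

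U5, the RNA that contacts both exons, had the highest pooled ratio of the classes in 2-kb windows. Pooled ratios mix called copies with the others. Among called copies alone, in the classes with more than 1 call, the median log2 ratio was 2.39 for U5, 2.56 for U2, 2.60 for U4 and 1.99 for U1. The single U4atac copy exceeded the U5 ratio in windows of 500 bp (7.79 against 5.66) and 250 bp (7.54 against 5.93) either side. It had 31 anti-FLAG tags within 500 bp and fell below the 20-tag minimum at 250 bp. No interval is given for those windows. The 10 U5 copies together held 483 anti-FLAG and 122 IgG tags, a library-scaled ratio of 3.98 (95% exact binomial interval 3.26 to 4.90). Of the 7 tested U5 copies 6 were called, 5 of them with the G+C correction. ENSMUSG00000065033.1 on chromosome 1 (173433179 to 173433294) had 108 anti-FLAG and 16 IgG tags, a ratio of 6.79 (4.00 to 12.3; exact binomial test, adjusted p = 2.09e-14). This copy lies in an exon of a protein-coding gene, and a protein-coding TSS, that of Refbp2, is 315 bp away, so tags of the U5 start and of that start cannot be told apart. A pair of U5 copies on chromosome 9, ENSMUSG00000075930.1 (65049533 to 65049648) and ENSMUSG00000075763.1 (65044379 to 65044494), had 82 against 13 and 67 against 10 tags. Neither of these has a protein-coding start within 1 kb. On chromosome 4, ENSMUSG00000064430.1 (116862547 to 116862662) had 81 against 17 tags and ENSMUSG00000070228.1 (116875133 to 116875248) had 55 against 17. The remaining copy of that stretch, ENSMUSG00000070237.1, named here after its values were seen, had 28 against 15 tags and did not pass (exact binomial test, adjusted p = 0.128), yet 17 of its anti-FLAG tags fell near the start. ENSMUSG00000064881.1, inside an intron on chromosome 1, had 42 against 17 tags and did not pass with the G+C correction (adjusted p = 0.0798, exact binomial test). The other 3 copies, which differ from the class in their first 20 bases, had 5 to 8 anti-FLAG tags and 4 to 8 IgG tags.

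U2, which pairs with the branch point, had 693 anti-FLAG and 406 IgG tags over 51 copies, a ratio of 1.72 (1.52 to 1.95). Of its 17 tested copies 6 were called, all 191 bp long, and 5 of these with the G+C correction. ENSMUSG00000065944.1 on chromosome 11 (101519552 to 101519742) had 92 against 13 tags, a ratio of 7.12 (3.96 to 13.9; exact binomial test, adjusted p = 9.43e-13). It belongs to an array of 5 annotated U2 copies on chromosome 11 (101466164 to 101519742), of which 3 were called. ENSMUSG00000064702.1 in the array had 41 against 5 tags although only 45.3% of the 36-base words in its window were unique in the genome. Its neighbour ENSMUSG00000065251.1, named here after its values were seen, had 13 against 2 tags at 44.3% unique words and fell below the tag minimum. The third called copy of the array, ENSMUSG00000065767.1, had 41 against 6 tags and stands 171 bp from the TSS of Rdm1. Elsewhere, ENSMUSG00000075752.1 on chromosome 1 had 80 against 14 tags and ENSMUSG00000064856.1 on chromosome 11 had 56 against 9. ENSMUSG00000065232.1 on chromosome 12, with 43 against 17 tags, passed the main test (exact binomial test, adjusted p = 0.00823) but not the corrected one (adjusted p = 0.103). In the 45 U2 copies without a call the median count was 7 for anti-FLAG and 8 for IgG.

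U1 is the largest class, and few of its copies stood apart. Over 206 copies the ratio was 1.13 (1.05 to 1.21; 1773 against 1579 tags), and 6 of 48 tested copies were called, 3 with the G+C correction. ENSMUSG00000075736.1 on chromosome 12 (55797769 to 55797932) had 111 against 21 tags, a ratio of 5.32 (3.31 to 8.93; exact binomial test, adjusted p = 8.28e-13). The Eapp start lies 885 bp from it. Inside an intron on chromosome 11, ENSMUSG00000070246.1 (87236369 to 87236532) had 89 against 25 tags, the highest IgG count of any copy, and ENSMUSG00000070194.1 (87240218 to 87240381) had 77 against 17. ENSMUSG00000075978.1 on chromosome 3 had 20 against 2 tags and did not pass with the G+C correction (exact binomial test, adjusted p = 0.0864). The remaining U1 calls, ENSMUSG00000087786.1 with 28 against 10 and ENSMUSG00000088021.1 with 17 against 4, had corrected adjusted p-values of 0.142 and 0.230 in the exact binomial test. In ENSMUSG00000087786.1 the fullest bin was at -800 to -701 bp from the U1 start, with the TSS of Cops4 866 bp away. In the 200 U1 copies without a call the median count was 7 for either antibody.

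U4, the partner of U6, had a ratio of 1.23 over 43 copies (1.07 to 1.42; 437 against 356 tags), with 2 of 16 tested copies called under either null. Both lie in tandem on chromosome 5, their starts 795 bp apart, so their windows share tags. ENSMUSG00000075779.1 (115940263 to 115940403) had 103 against 17 tags and ENSMUSG00000075998.1 (115939468 to 115939608) had 87 against 13. Counting each tag once over the 2795 bp that both windows cover gave 113 against 25 tags, a ratio of 4.55 (2.93 to 7.32). Each start had an accumulation of its own, with 27 anti-FLAG tags near the start of one and 27 near that of the other, against 1 and 2 IgG tags. ENSMUSG00000084557.1 on chromosome 1, with 12 anti-FLAG and 20 IgG tags, went the other way without passing (exact binomial test, adjusted p = 0.357).

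The minor-spliceosome RNAs each had 1 copy with a call. U11 ENSMUSG00000077323.1 on chromosome 4 (131825995 to 131826128) had 60 against 19 tags, a ratio of 3.18 (1.87 to 5.64; exact binomial test, adjusted p = 2.29e-04), with 35 against 3 tags near the start, and it kept its call with the G+C correction. The other 4 U11 copies had 3 to 9 anti-FLAG and 4 to 7 IgG tags. U12 ENSMUSG00000065176.1 on chromosome 15 (82980074 to 82980224) had 47 against 12 tags (exact binomial test, adjusted p = 2.50e-04), 260 bp from the TSS of Poldip3, and the corrected adjusted p was 0.0729. The remaining 5 U12 copies had 3 to 15 anti-FLAG and 2 to 16 IgG tags. Among them ENSMUSG00000065836.1 had 15 against 6 tags and ENSMUSG00000065057.1 had 15 against 16. U4atac ENSMUSG00000080542.1 on chromosome 1 (120355718 to 120355842), inside an intron, had 40 against 18 tags, a ratio of 2.24 (1.25 to 4.14; exact binomial test, adjusted p = 0.0228). Its corrected adjusted p was 0.284, and a protein-coding TSS lies 518 bp away.

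The U6 and snoRNA genes gave lower pooled ratios than U2 or U5. The 935 U6 genes, whose RNA is made by RNA polymerase III, had a ratio of 1.04 (1.01 to 1.07) and 7 calls in 223 tested windows. The 1552 snoRNA genes had 1.14 (1.11 to 1.17) and 46 calls in 459. The 322 copies together had 1.41 (1.34 to 1.48), beside 1.47 (1.47 to 1.48) for all genes and 1.66 (1.65 to 1.67) for protein-coding genes. U1 and U4 were below the ratio of all genes, and the U2 interval included that of protein-coding genes. Near the start, the ratio was 6.64 (4.59 to 9.90) for U5, 6.54 (1.48 to 59.7) for U4atac, 6.18 (2.76 to 16.3) for U11, 2.41 (1.11 to 5.66) for U12, 1.79 (1.35 to 2.38) for U4, 1.39 (1.07 to 1.81) for U2 and 1.10 (0.963 to 1.26) for U1, beside 1.05 (0.980 to 1.12) for U6 and 2.76 (2.72 to 2.79) for protein-coding genes. The U1 and U6 intervals near the start include 1. These ratios were not tested against each other.

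Tags of the called copies lay downstream of the annotated start, along and past the short RNA. After tags were shifted toward the fragment centre, 1051 anti-FLAG tags fell in the 1 kb after the TSS and 416 in the 1 kb before it, 71.6% after (95% exact interval 69.3 to 73.9). More tags lay after than before in 21 of 23 copies. In the IgG library the share after the TSS was 53.2% (47.5 to 58.8), and in the 299 copies without a call the anti-FLAG share was 49.8% (47.6 to 51.9). Called protein-coding windows leaned the other way, with 43.6% (43.2 to 43.9) of anti-FLAG tags after the TSS. The IgG library leaned the same way in those windows, with 42.3% (41.7 to 42.9). The median anti-FLAG position within a copy was 193 bp after the TSS in the middle copy of the 23, and the RNAs themselves are 116 to 191 bp long. By class the share after the TSS was 77.6% for U2, 71.7% for U5, 71.1% for U1 and 64.2% for U4, whose neighbouring starts share tags. Leaving out the 6 called copies with a protein-coding TSS within 1 kb gave 73.7% (71.0 to 76.3).

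**Figure D2:**
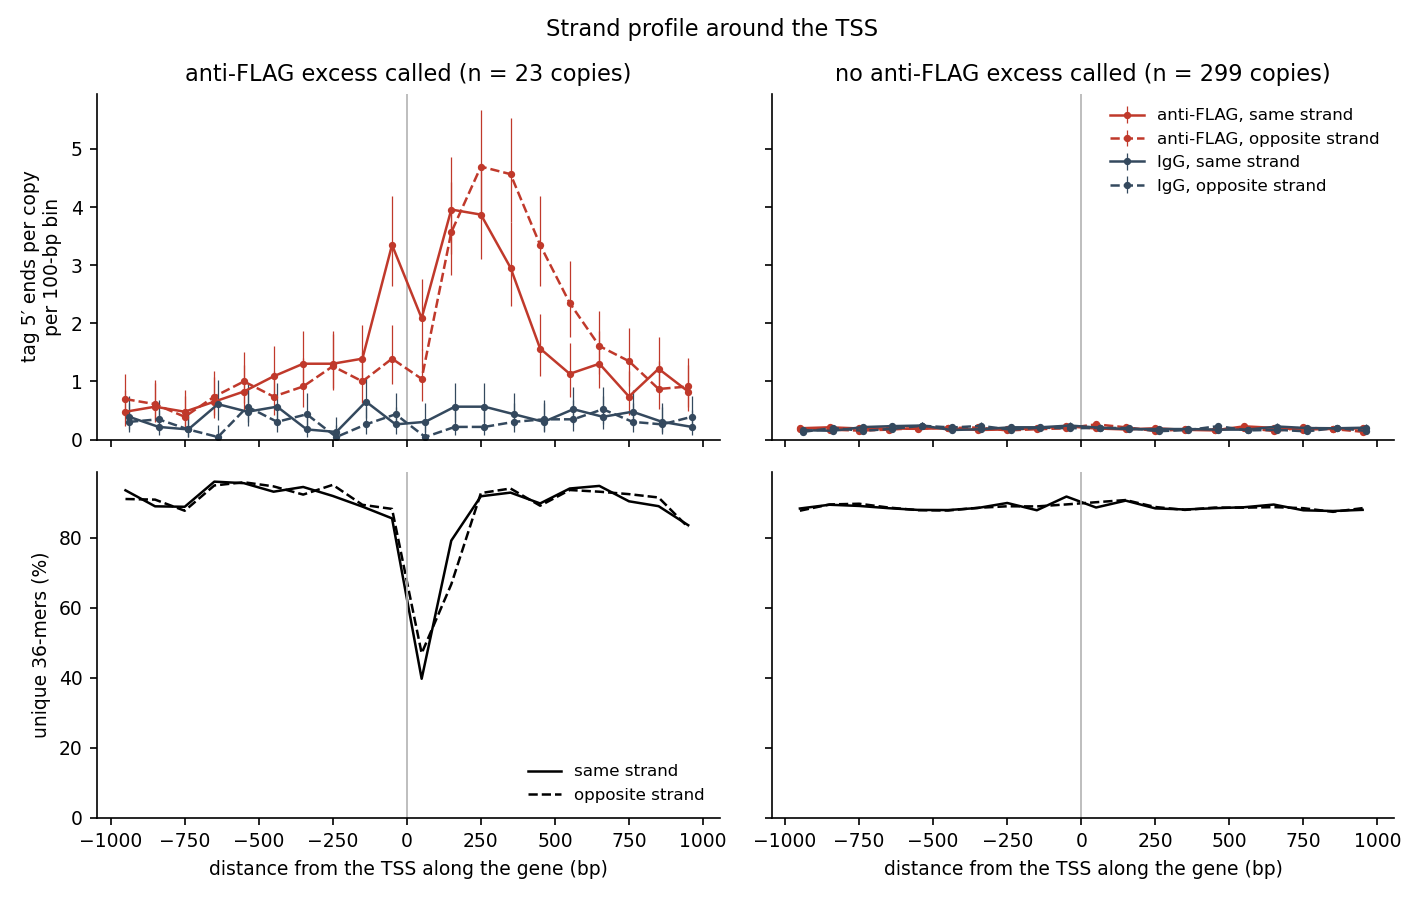
Upper panels: 5′ tag ends per copy in 100-bp bins (vertical axis) against distance from the TSS along the gene (horizontal axis, bp), unshifted, by library and strand, with exact 95% Poisson intervals, for the 23 called copies and the 299 others. Lower panels: percent of 36-base words in each bin that occur once in the genome. In the called copies the anti-FLAG lines peak after the TSS. The gene-strand line rises already in the bin before the TSS and dips in the bin after it. The anti-FLAG lines of the other copies stay level.

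Ends on the 2 strands were offset from each other. Without the shift, anti-FLAG 5′ ends on the gene's strand were most frequent in the bins starting 100 and 200 bp after the TSS, with 91 and 89 over the 23 copies. Ends on the opposite strand were most frequent in the bins starting at 200 and 300 bp, with 108 and 105. These are raw counts, not scaled by the unique words in each bin. The 100 bp just before the TSS held 77 ends on the gene's strand and 32 on the other. In the first 100 bp after the TSS the raw counts dropped to 48 and 24. There only 39.7% and 47.0% of 36-base words were unique, against 85.5% and 88.2% in the bin before. Per 1000 unique words, ends on the gene's strand were most frequent in that first bin, at 52.6, so the drop was not seen there. Ends on the opposite strand were then most frequent in the bin starting at 100 bp, at 53.5, and stayed lower in the first bin, at 22.2. IgG ends ranged from 1 to 15 per bin and strand.

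**Figure D3:**
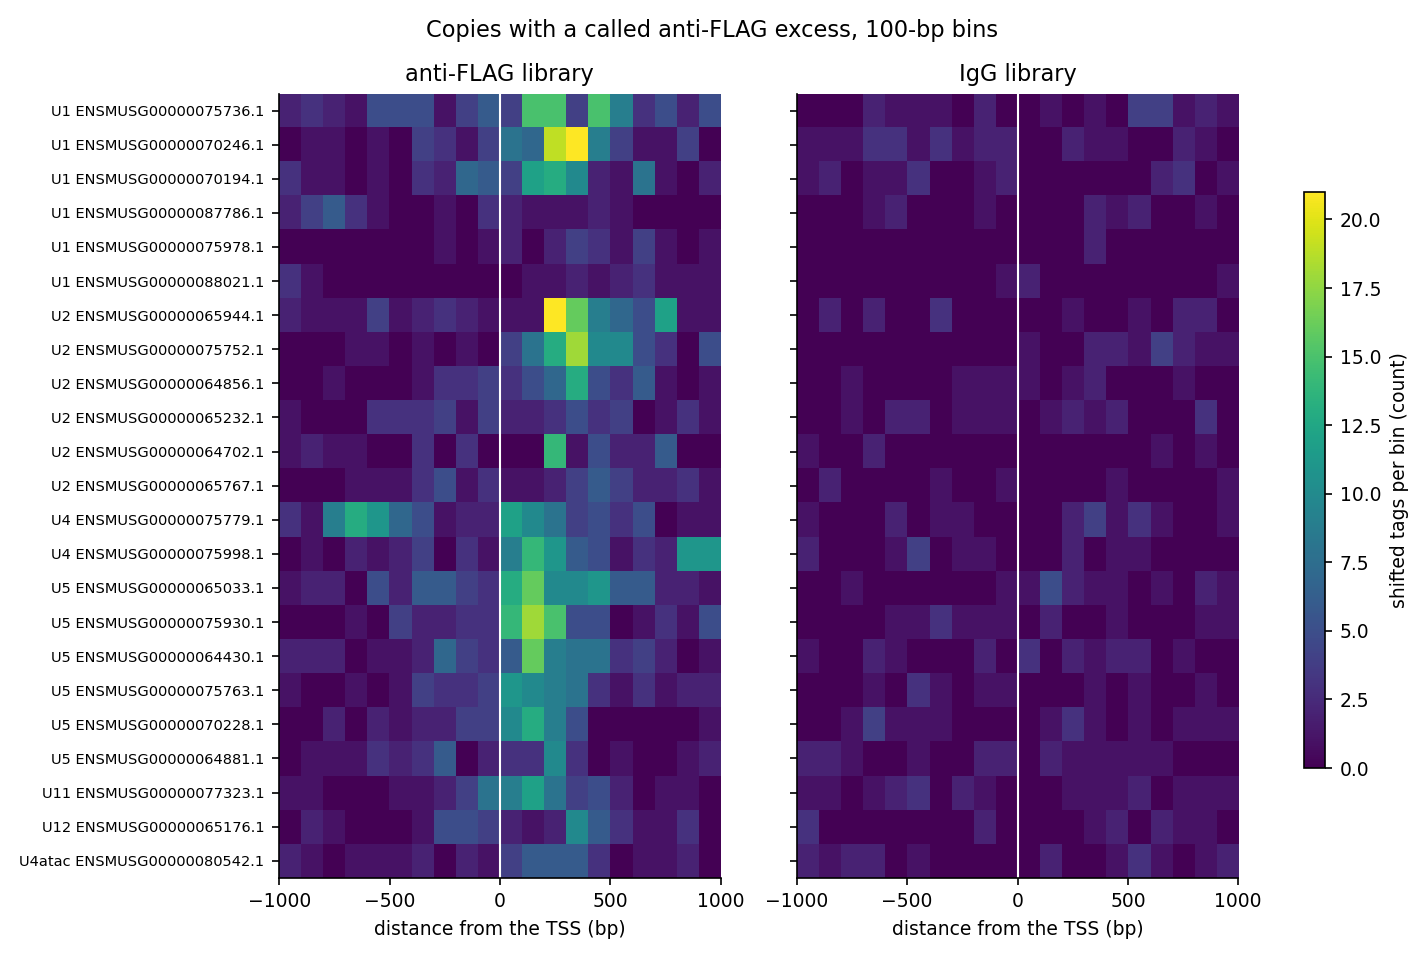
Shifted tags per 100-bp bin (colour, count, same scale in both panels) against distance from the TSS (horizontal axis, bp) in the 23 called copies, 1 copy per line, ordered by class and anti-FLAG count. The anti-FLAG maxima lie mostly between 0 and 500 bp after the TSS and reach 21 tags in a bin; the block at -700 to -601 bp of U4 ENSMUSG00000075779.1 overlaps the neighbouring U4 copy.

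Most copies with a call shared an RNA start. It was read from sequence, without the tags, but was not planned in advance and was added after the sequences were seen. The most frequent first 20 bases of each class were taken as its class start, held by 62 copies (29 U1, 13 U2, 8 U4, 7 U5, 2 U11, 2 U12 and, as the only copy of its class, U4atac). Of the 23 called copies, 21 had the class start, among 31 copies with it that reached the tag minimum. Among the 260 copies without it, 62 reached the minimum and 2 were called, the U1 copies ENSMUSG00000087786.1 and ENSMUSG00000088021.1. Called copies were 17 intergenic, 5 intronic and 1 exonic, beside 212, 105 and 5 of all 322.

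Promoter letters followed the same division. The octamer was found in 15 of the 23 called copies and 4 of the 299 others, 5.90% of all copies and 1.06% of all gene windows of the same length. Only 70 of those 299 copies reached the tag minimum. The PSE core was found, on either strand, in 13 of 23 and 19 of 299, beside 4.39% of all genes. A ZNF143 core (CCCANNNTG, 300 to 100 bases before the TSS, either strand), the letters of another activator of these promoters, was held by 5 of the called copies and 41 copies in all, beside 13.2% of all genes. The letters TATAAA at 40 to 15 bases before the TSS were in 15 copies, none of them called, beside 2.47% of all genes. Some called promoters held near matches, which led to a looser search chosen after these values were seen. ACC on the gene's strand starting 62 to 56 bases before the TSS was then found in 19 of 23 called and 39 of 299 other copies (8.72% of all genes). An octamer with at most 1 mismatch was in 18 of 23 and 71 of 299 (13.8% of all genes), and both together in 17 and 20 (1.18% of all genes). A match in letters shows neither binding nor use of the site.

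Counts of both libraries were low where the surroundings of a copy recur in the genome. Of the 62 copies with the class start, 14 had fewer than 50% unique 36-base words within 1 kb, at a median of 13.7%, and their median count was 1 for anti-FLAG and 2 for IgG. Only 1 of the 14 reached the tag minimum, and it was called. Of the 48 with 50% or more, 30 reached it and 20 were called. The 28 that were not had median counts of 8 (anti-FLAG) and 7 (IgG) at a median of 94.6% unique words. Among those 28, ACC at the PSE position stood in 6 and the octamer in 2, beside 18 and 14 of the 20 called.

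Repeated surroundings were frequent in U1. A cluster of 7 U1 copies on chromosome 12 (55797769 to 55839609), all with the class start and the ACC letters, had 1 call, ENSMUSG00000075736.1, at 87.95% unique words. The other 6 of the cluster had 0.25 to 19.25% unique words and 0 to 11 anti-FLAG tags. In a cluster on chromosome 3 (96132348 to 96292816), 1 of 8 U1 copies with the class start was called and their median unique share was 21.9%. No tag of either library fell on 3 U1 copies, and 0.25 to 1.00% of their words were unique. An excess at such copies was not detectable from these tags.

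**Figure D4:**
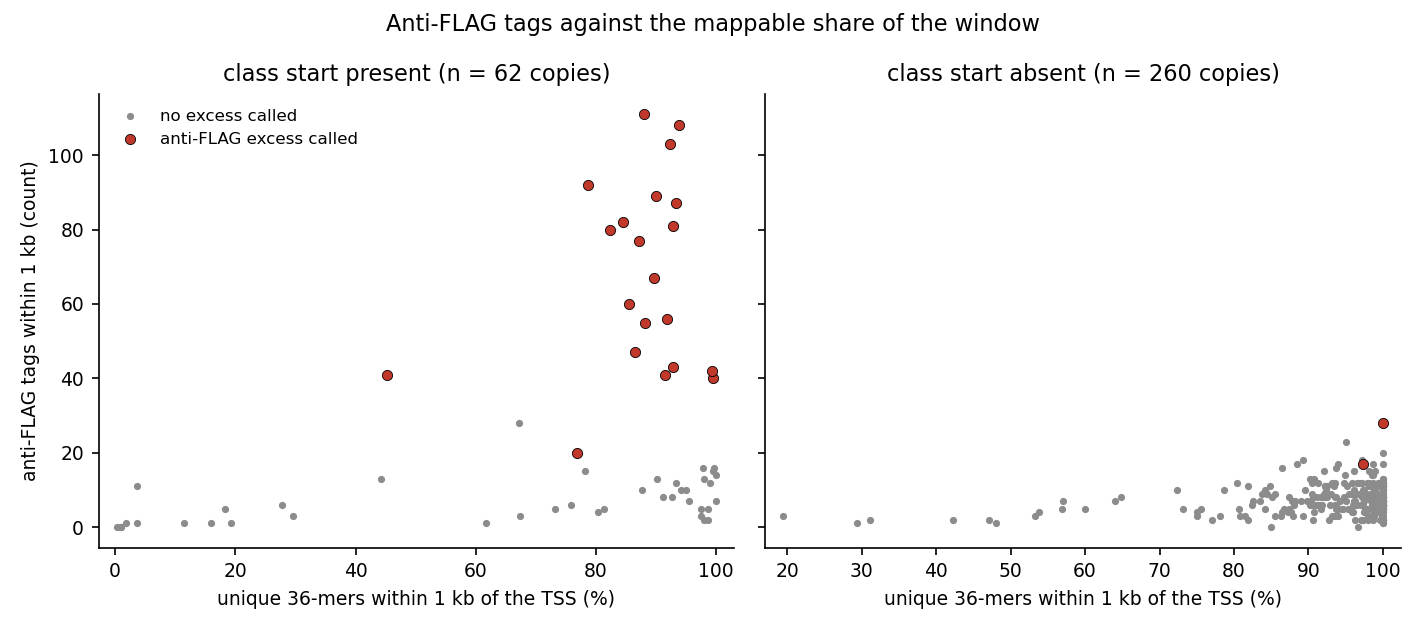
Anti-FLAG tags within 1 kb of the TSS (vertical axis, count) against the percent of 36-base words there that occur once in the genome (horizontal axis), for the 62 copies with the class start (left) and the 260 without it (right). Called copies are red; 20 of the 21 on the left lie at 50% unique words or more, and 2 lie on the right.

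Protein-coding genes that make, process or bind these RNAs were read from the same table. Of 80 listed genes 77 were found in the annotation and 76 tested, and 30 had an anti-FLAG excess at their own TSS by the same exact binomial test, with none lower; the background is the 27.8% of tested protein-coding windows that were called. The median log2 ratio was 1.01, beside 0.88 for tested protein-coding windows. With the G+C correction 3 of the 76 were called, beside 1.13% of tested protein-coding windows. Integrator, the complex that cuts the transcripts, had 9 of 12 genes called, the Sm ring proteins 4 of 7, U2 proteins 4 of 8, U4, U5 and U6 proteins 3 of 10, the SMN assembly complex 3 of 10, U1 proteins 2 of 3, U11 and U12 proteins 2 of 8, export and Cajal body factors 1 of 6, and transcription factors of these genes, SNAPc included, 2 of 12. Those 2, named here after their values were seen, were Pou2f1, which encodes Oct-1, with 20 against 2 tags, and Zfp143, the mouse ZNF143 gene, with 30 against 13; neither passed with the G+C correction.

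Of the 6 genes with the smallest p-values, 5 encode proteins of the particles. Snrnp70, a U1 protein, had 33 anti-FLAG and 4 IgG tags (ratio 8.30, 2.95 to 32.2). Sf3b1 and Sf3b2, of the U2 particle, had 31 against 4 and 54 against 19 tags. Prpf4, of the U4/U6 particle, had 42 against 11, Snrpe, an Sm protein, 33 against 7, and Wrap53, a Cajal body factor, 52 against 16. Snrnp70, Sf3b1 and Prpf4 were the 3 that passed with the correction. None of the 5 SNAPc genes, whose products bind the PSE, passed: Snapc1 had 21 against 13 tags, Snapc2 27 against 16, Snapc3 24 against 16, Snapc4 12 against 8 and Snapc5 27 against 13. The intervals of their ratios spanned 0.567 to 4.41. Each of the 5 included the ratio of Sf3b2, 2.86, the lowest of the 6 genes above. The ratios of Snrnp70 (8.30), Sf3b1 (7.79) and Snrpe (4.74) lay above all 5 intervals. Their own intervals, 2.95 to 32.2, 2.76 to 30.4 and 2.06 to 12.7, overlapped all 5. The ratios of Prpf4 (3.84) and Wrap53 (3.27) lay within some of the 5. Because the 6 genes were picked for small p-values, their high ratios follow from the choice. A difference from the SNAPc genes was not tested.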

How the data were processed

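The deposited files list the positions of 36-bp tags from 1 anti-FLAG and 1 IgG library, with 0 tags repeated at a position and strand; the score column that the authors deposited is a constant 512 and was not used. The sources used here do not name an aligner or say how repeated reads were treated. The build was taken as NCBIM37 because tags reach its chromosome ends (4 and 2 lie beyond them). Tags of both libraries were shifted by 75 bp, the shift estimated from the anti-FLAG library, and counted within 1 kb of each TSS on 19 autosomes and X. The estimate from the IgG library, 70 bp, was not used. Windows with at least 20 tags entered a 2-sided exact binomial test against the library totals, with Benjamini-Hochberg adjustment over all 14632 windows, which was tested on simulated data. The G+C correction used windows over 10 kb from any TSS. Pooled ratios counted each tag once. The copies and gene lists were chosen with earlier results of these data known. Copies were named if they were among the 20 calls of smallest p, had most anti-FLAG tags in their class, belonged to U11, U12 or U4atac, or were among the 3 highest in IgG; listed genes, if among the 6 of smallest p or SNAPc. U1 ENSMUSG00000087786.1, ENSMUSG00000088021.1 and ENSMUSG00000064889.1, U5 ENSMUSG00000070237.1 and U2 ENSMUSG00000065251.1 fall outside this rule and were named after their values were seen. RefSeq sequence tables matched none of these copies, so Ensembl identifiers are used. Python 3.11.15, NumPy 2.4.6, SciPy 1.17.1 and pandas 2.3.3 were used.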

Additional observations from a re-analysis of the deposited data

How the results depend on the processing

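No paired analysis was possible because each antibody has 1 library. The 23 calls became 24 with IgG scaled on background bins, 21 with windows of 500 bp either side and 23 with unshifted tags. With 250 bp either side there were 13, and only 14 copies reached the tag minimum. Of all tested gene windows, 59.6% were called at 500 bp either side and 80.6% at 250 bp either side. The pooled ratio was 1.54 with background scaling, 1.66 at 500 bp, 1.73 at 250 bp and 1.30 without copies near a protein-coding TSS. Background scaling gave 1.24 for U1 and a median log2 ratio of 0.12. At 500 bp the class ratios were 1.21 for U1, 1.51 for U4, 5.66 for U5, 3.07 for U11, 2.73 for U12 and 7.79 for U4atac. At 250 bp they were 1.22 for U1, 1.49 for U2, 1.96 for U4, 5.93 for U5, 5.53 for U11 and 7.54 for U4atac. Calls in the machinery list, 30 of 76 tested genes, were 18 of 77 with a minimum of 10 tags, 8 of 8 at 250 bp and 3 of 76 with the G+C correction. At least 5 or 20 tags near the start gave 44 or 11 copies in place of 19. The share of anti-FLAG 5′ ends after the TSS over all copies, 57.2% unshifted, stayed within its interval under both alternatives. An octamer with at most 1 mismatch was in 89 copies in place of 19. Leaving out copies under 50% unique words, an alternative chosen after the data were seen, left 22 calls. Among the called copies and genes named by the rule, no value changed sign in windows that reached the tag minimum. The signs of the called U1 copies ENSMUSG00000087786.1 and ENSMUSG00000088021.1 were not followed under the alternatives. The order of the class ratios did change: U4atac exceeded U5 at 500 bp and 250 bp. That order rests on 1 U4atac copy, which fell below the tag minimum at 250 bp. The cause of each shift was not tested.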
